A study of Saccharomyces cerevisiae with 9 samples.

Results

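Genes named for proteins of the mitochondrial ribosome of budding yeast (Saccharomyces cerevisiae) were followed as a group. They are 57 nuclear genes among the 6256 genes that the arrays measured. The group holds every gene whose name on the array begins with MRPL, MRPS, MRP or RSM followed directly by a digit. By the array's own gene descriptions, 33 of the 57 encode proteins of the large subunit and 22 encode proteins of the small subunit. MRP8 is described as a mitochondrial ribosome gene with no subunit, and the array gives RSM28 no description. Both are members by name alone, and whether their products belong to the ribosome was not checked.

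Mitochondria keep a ribosome of their own, which is built apart from the ribosome of the cytosol. It translates the few messages encoded in mitochondrial DNA, most of which specify subunits of the respiratory chain and of the ATP synthase. In yeast nearly all of its proteins are nevertheless encoded in the nucleus, translated in the cytosol and imported, while its ribosomal RNAs and one small-subunit protein, Var1, come from mitochondrial DNA. The mRNAs of many nuclear-encoded members are bound by Puf3, a protein that promotes their decay and their placement near mitochondria.

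Histone H2B is ubiquitylated in yeast on one lysine near its C-terminus, and Ubp8, a subunit of the SAGA coactivator complex, is one of the proteases that remove this mark. In 4 comparisons, haploid strains were compared on 9 Agilent 2-colour arrays, each of which carried RNA of a mutant in one dye and of a reference strain in the other. The K123R strain (CY1272) has arginine in place of that lysine in the HTB1 copy of H2B and also lacks the second H2B gene, HTB2, so that the altered protein is its only H2B. The ubp8 strain (BY10809) lacks UBP8. The double mutant (CY1383) carries the HTB1 substitution together with the deletions of HTB2 and UBP8. Each of these was set against the wild-type strain BY4742 on 2 arrays, the first with the mutant in Cy5 and the second with the mutant in Cy3. K123R was also set against BY13026, which lacks HTB2 but keeps an unchanged HTB1, on 3 arrays with K123R in Cy5 on the second only. The comparison with wild type therefore varies both H2B genes at once, and the comparison with the htb2 deletion strain varies only HTB1 by its labels. One array of K123R against wild type is titled with a deletion of HTB1, whereas its channel label gives a deletion of HTB2, which is the genotype used here. The series describes the arrays as biological replicates. Growth medium is not given in the sources used here.

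The labelled deletions were checked first. The HTB2 log2 ratio to wild type was -3.78 in K123R and -3.40 in the double mutant, and that of UBP8 was -2.31 in the ubp8 strain and -2.36 in the double mutant. Genes that the labels do not mention also differed between strains. HIS3, a histidine biosynthesis gene, was higher in K123R than in either reference, with log2 ratios of 3.17 and 3.64. It was also higher in the double mutant than in wild type, with 3.32 and 2.39 on its arrays. The RNA labelled K123R gave LEU2, a leucine biosynthesis gene, signals of 2891 and 3368 on the arrays against wild type but 105 to 165 where the reference was the htb2 deletion strain, and the log2 ratios were 3.70 and -0.21. The 2 sets of arrays are of different designs, with 10807 and 10789 spots, and whether the RNA under this label differed between them was not tested. In the double mutant LEU2 gave log2 ratios of -0.16 and 0.06 against wild type. Agilent's outlier flags, which drop a spot, fell on 0% to 2.11% of the members' 95 spots on the arrays against wild type. On the other 3 arrays they fell on 20% to 25.3% of those spots, against 18.8% to 19% of all gene spots there.

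All 57 members were well above background on all 9 arrays, and none of their spots was saturated. The normalised signal of the mutant channel over the members had a median of 3043 to 3970 units on the 9 arrays. Over all genes the median was 1840 to 2377, taken on the geometric mean of both channels, so the measures are not quite alike. Values below are log2 ratios of mutant over reference, as the mean ± SE from a limma fit to all genes. As each array was centred, a shift shared by all mRNAs would not be seen, and in RNA of whole cultures fewer cells with a transcript and less of it per cell cannot be told apart. "Passed", "rose" and "fell" mean a Benjamini-Hochberg adjusted p under 0.05 over all genes tested.

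**Figure D1:**
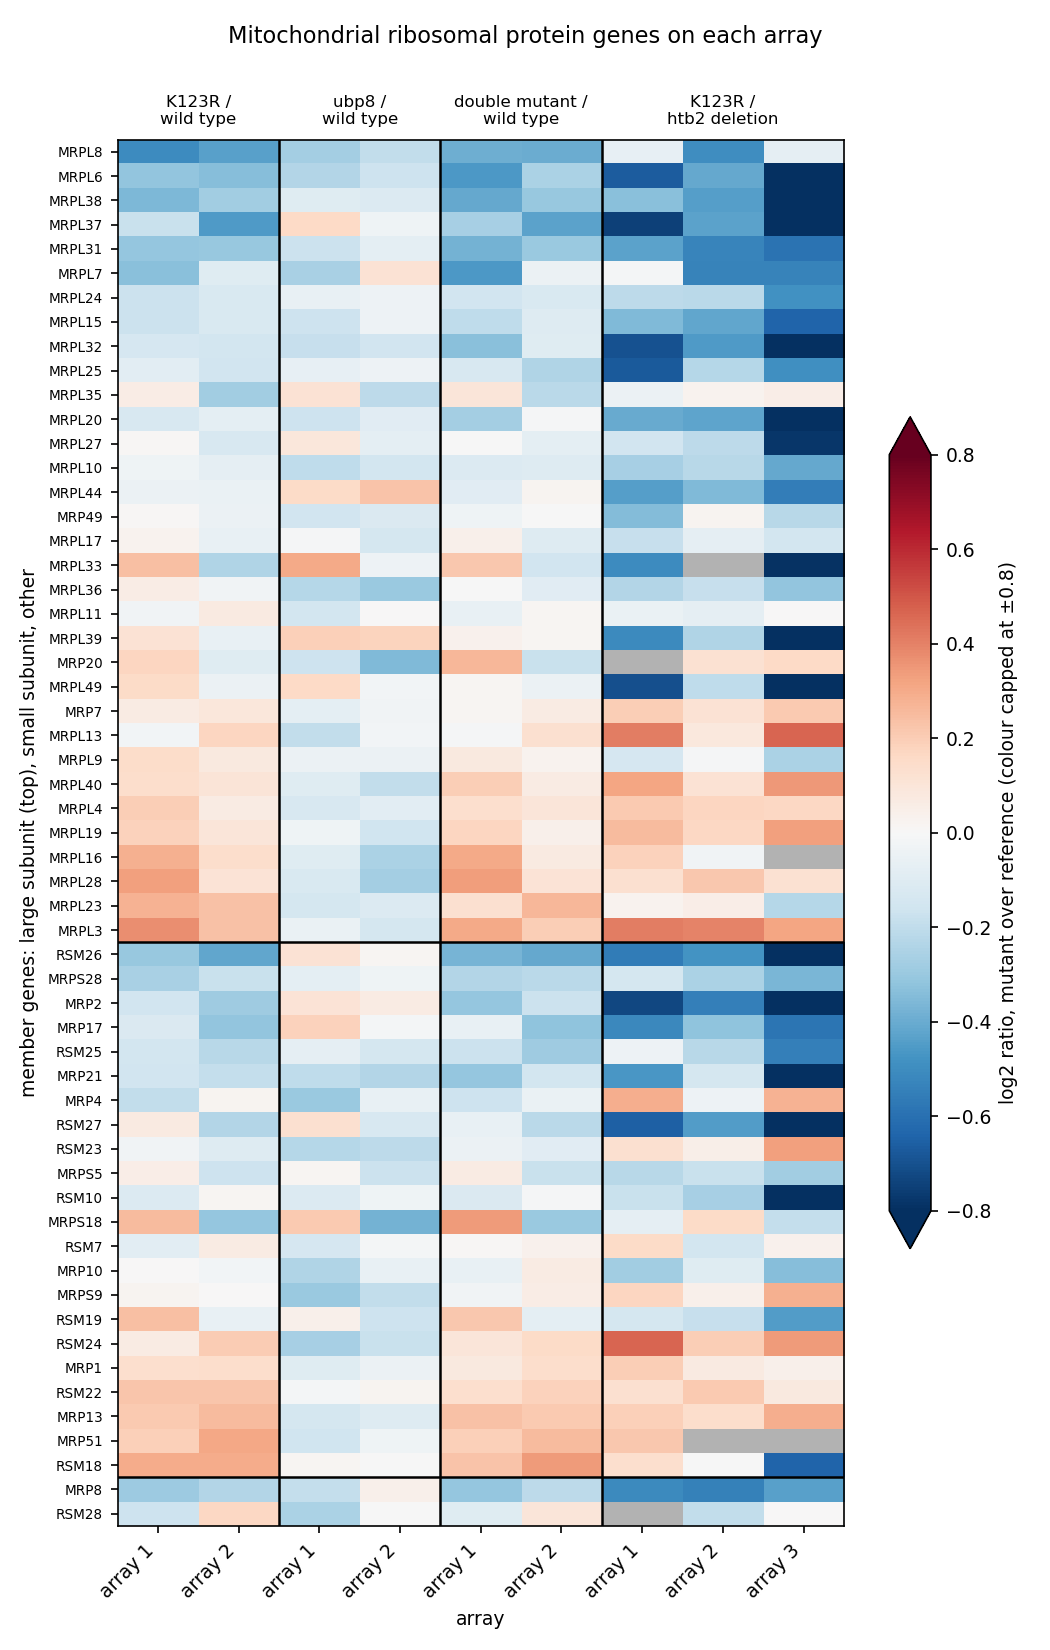
Log2 ratio of mutant over reference for the 57 members (rows) on each of the 9 arrays (columns), blue below 0 and red above 0, with the colour capped at ±0.8. Rows are grouped by subunit and ordered within it by the value in K123R against wild type, and grey cells have no value after outlier-flagged spots were dropped. The third array against the htb2 deletion strain holds the lowest values, down to -1.45 for MRPL32.

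Against wild type, members of both subunits went in both directions in K123R. Of the 57 members 6 rose and 6 fell, which is 10.5% in each direction. Over the 6250 genes tested, 10.9% rose and 10.1% fell (21.1% in either direction), so the members' counts lay at the background and are no result about the group. The median over the members was -0.02, and over all genes it was -0.0026.

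Among the large-subunit genes in K123R, MRPL8, which encodes a homologue of a bacterial large-subunit protein, was the furthest from 0. Its signals were 3896 in K123R and 5511 in wild type on the first array, and 4022 and 5430 on the second. The log2 ratios were -0.50 and -0.43, and the fitted value was -0.47 ± 0.05 (adjusted p = 0.00590), which is 0.724 of the wild-type level. MRPL6 and MRPL38 encode further homologues of bacterial proteins. MRPL6 gave -0.32 and -0.34 on the 2 arrays (-0.33 ± 0.07, adjusted p = 0.0256). MRPL38 gave -0.36 and -0.28 (-0.32 ± 0.05, adjusted p = 0.0164). MRPL31, a subunit that has no bacterial counterpart, gave -0.31 and -0.30 (-0.31 ± 0.05, adjusted p = 0.01735). In each of these 4 genes both arrays lay below 0.

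The large-subunit genes that rose in K123R were MRPL3 and MRPL23. MRPL3 encodes a protein with the fold of a double-strand RNA nuclease. Its signals were 5349 in K123R against 4131 in wild type on the first array and 5594 against 4765 on the second. The log2 ratios of 0.37 and 0.23 gave 0.30 ± 0.06 (adjusted p = 0.0269). MRPL23, a homologue of a bacterial protein, gave 0.28 and 0.24 (0.26 ± 0.06, adjusted p = 0.0309).

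Of the small-subunit genes, 4 rose and 2 fell in K123R. RSM18, a homologue of a bacterial protein, gave 0.30 on both arrays (0.30 ± 0.05, adjusted p = 0.01755). MRP51, whose product acts in the translation of cytochrome oxidase messages, gave 0.19 and 0.31 (0.25 ± 0.06, adjusted p = 0.0407). MRP13, a subunit particular to mitochondria, gave 0.21 and 0.25 (0.23 ± 0.05, adjusted p = 0.0282). The fourth, RSM22, resembles methyltransferases, and it gave 0.22 on both arrays (0.22 ± 0.05, adjusted p = 0.0296). RSM26, which is related to manganese superoxide dismutases, was lower, with -0.30 and -0.41 (-0.36 ± 0.06, adjusted p = 0.0140). MRPS28, a homologue of a bacterial protein, gave -0.26 and -0.18 (-0.22 ± 0.05, adjusted p = 0.0347).

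The number of arrays limits these calls. With an array of a mutant left out, that mutant was no longer measured in both dyes, so strain and dye cannot be told apart there. Without either K123R array no member passed, where 0.544% and 1.54% of genes did. Without either double-mutant array 6 passed, and without either ubp8 array 5 passed, where 14.2% and 13.2% of genes did. With a gene-specific term for dye orientation 36 members passed (17 higher, 19 lower), where 66.2% of all genes did, and with a term for the slide 16 passed, where 37.1% did. The median of the members was 0.0069 on the first array alone and -0.06 on the second alone, so its sign was not the same on both arrays.

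The double mutant was set against the same wild-type strain. Of the 57 members 3 rose and 8 fell in it, 5.26% and 14%, where 9.78% of 6246 genes rose and 10.2% fell (19.9% in either direction). The median was -0.03 over the members and 0.00062 over all genes. Of the large-subunit genes, MRPL8 gave -0.39 and -0.40 on its 2 arrays (-0.39 ± 0.05, adjusted p = 0.00962). MRPL6 gave -0.46 and -0.25 (-0.36 ± 0.07), MRPL38 gave -0.41 and -0.30 (-0.36 ± 0.05), and MRPL31 gave -0.38 and -0.30 (-0.34 ± 0.05). These 4 had adjusted p-values from 0.00962 to 0.0213. MRPL3 was the large-subunit gene that rose, with 0.30 and 0.20 (0.25 ± 0.06, adjusted p = 0.0455).

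Of the small-subunit genes, RSM26 gave -0.37 and -0.41 in the double mutant (-0.39 ± 0.06, adjusted p = 0.0121). MRPS28, RSM25 and MRP21 also fell, by 0.22 to 0.23 on the log2 scale, with adjusted p-values of 0.0344, 0.0453 and 0.0494. RSM25 is a subunit particular to mitochondria and MRP21 a homologue of a bacterial one. RSM18 gave 0.23 and 0.34 (0.28 ± 0.05, adjusted p = 0.0206), and MRP13 gave 0.23 and 0.21 (0.22 ± 0.05, adjusted p = 0.0307). Without either double-mutant array no member passed. Without either K123R array 4 passed, and without either ubp8 array 5 passed, where 12.1% and 13.3% of genes did. With a dye term 34 passed, where 65.5% of all genes did, and with a slide term 18 passed, where 31.2% did.

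The double mutant and K123R were compared through their shared wild-type reference. No member and none of the 6244 genes passed the test of the difference (limma, 0% of genes in either direction). No member had an unadjusted p under 0.05, while 44 genes did. Of HTB2, UBP8, HIS3 and LEU2, used to check the strains, none passed, although their differences ran down to -3.75, for LEU2. UBP8 gave log2 ratios to wild type of -0.28 and -0.12 in K123R and -2.32 and -2.40 in the double mutant. Of these 2 mutants only the double mutant lacks UBP8, so the test missed a known difference. A lack of calls therefore does not show the 2 mutants to be alike. The difference was within 0.1 of 0 in log2 for all 57 members. Its quartiles were -0.04 and 0.0016 over the members and -0.04 and 0.03 over all genes, so small differences were not particular to the group. The SE of that difference had a median of 0.09 and reached 0.32, for MRPS18. On the slide that held the first array of each, the median member difference of K123R minus the double mutant was 0.03.

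In the ubp8 strain the members lay mostly below 0, by small amounts. The median over the 57 was -0.10 and that over all genes was -0.0067. On the first array 42 of 57 members were below 0 (median -0.10), and on the second 49 were (median -0.08). Of the 57, 38 were below 0 on both arrays, or 66.7%, where 29.8% of the 6217 genes with both values were. Only 4 members, or 7.02%, were above 0 on both arrays, where 28.4% of genes were. Both subunits took part, with 24 of 33 large-subunit and 13 of 22 small-subunit genes below 0 on both arrays, and medians of -0.10 and -0.08.

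No single member passed in the ubp8 strain (limma, 0 of 57), where 1.86% of 6246 genes rose and 0.977% fell (2.83% in either direction). An unadjusted p under 0.05 was found for 12 members (21.1%), where 21.7% of genes had one, so this share lay at the background. The lowest log2 ratio was that of MRPL36, a homologue of a bacterial protein, with signals of 3421 in the mutant against 4000 in wild type on the first array and 3467 against 4259 on the second. Its log2 ratios were -0.23 and -0.30 (-0.26 ± 0.06, adjusted p = 0.0762). MRP20, a homologue of the bacterial protein that lines the mouth of the exit tunnel, gave -0.16 and -0.35 (-0.26 ± 0.13, adjusted p = 0.330). MRPS9 gave -0.30 and -0.20 (-0.25 ± 0.05, adjusted p = 0.07975). In these 3 genes both arrays lay below 0.

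The highest member in the ubp8 strain was MRPL44, with 0.16 and 0.23 (0.19 ± 0.05, adjusted p = 0.126). MRPL44 lies 2 genes from UBP8 in the RefSeq order of genes (assembly R64), and it is the only member within 3 genes of HTB1, HTB2, UBP8, HIS3 or LEU2. In the double mutant, which lacks UBP8 too, it gave -0.09 and 0.02. MRPL39, a homologue of a bacterial protein, gave 0.19 and 0.18 in the ubp8 strain (0.18 ± 0.06, adjusted p = 0.160). MRPL33, another such homologue, gave 0.31 on the first array and -0.04 on the second (0.13 ± 0.16, adjusted p = 0.723).

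The number of calls in the ubp8 comparison moved with the model of the spread. With a gene-specific dye term 34 members passed, 30 of them lower and 4 higher, where 49.5% of all genes passed. With a slide term 1 member passed, lower, where 12% of genes passed. The median stayed between -0.11 and -0.08 under all alternatives run, those that leave out an array included.

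**Figure D2:**
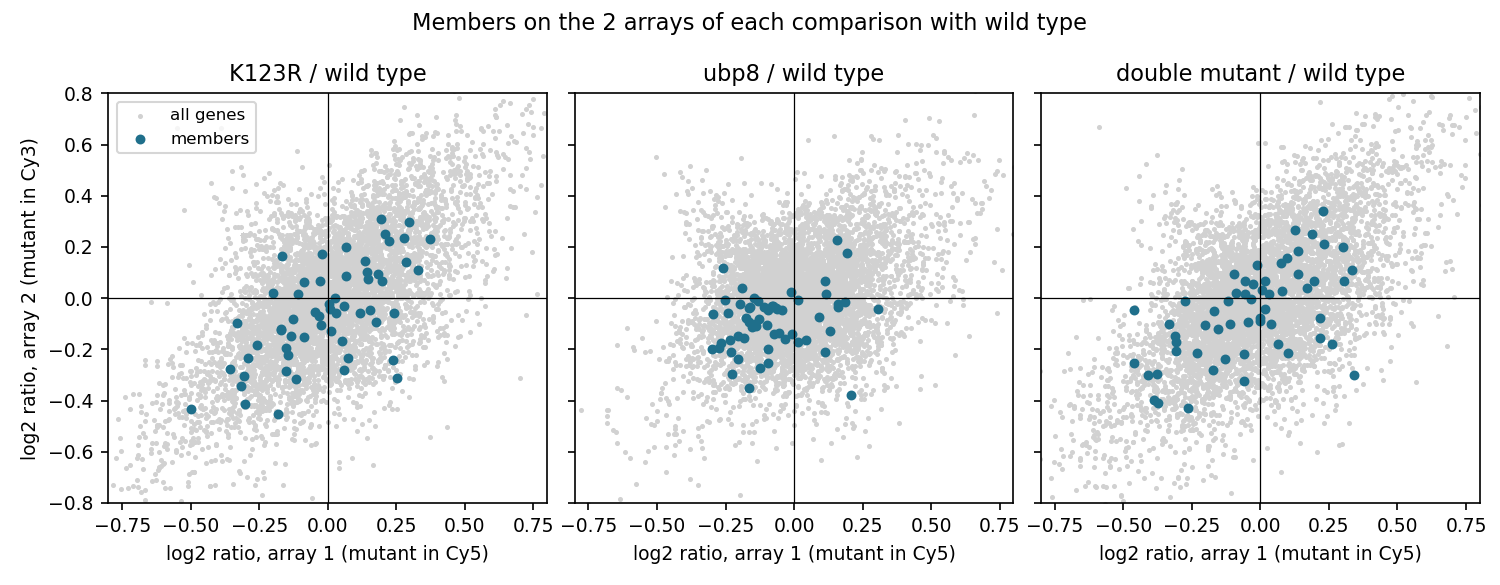
Log2 ratio on the first array (mutant in Cy5, horizontal) against the second (mutant in Cy3, vertical) for each mutant against wild type, with members in blue over all genes in grey. In the ubp8 panel 38 of the 57 members lie at the lower left, below 0 on both axes, and in the K123R and double-mutant panels 21 and 26 do.

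For K123R against wild type, 21 members (36.8%) were below 0 on both arrays, where 34.7% of genes were, and 16 (28.1%) were above 0 on both, where 34.3% were. For the double mutant the counts were 26 (45.6%, against 34.8% of genes) and 17 (29.8%, against 32.8%). The differences between mutants were tested in the same fit. K123R minus ubp8 was above 0 for MRP13 (0.35 ± 0.07, adjusted p = 0.0433) and MRPL23 (0.38 ± 0.08, adjusted p = 0.0489) and below 0 for RSM26 (-0.42 ± 0.08, adjusted p = 0.0423). Over 6244 genes 3.81% were higher and 4.68% lower in that contrast (8.49% in all). The double mutant minus ubp8 was above 0 for MRP13 (0.35 ± 0.07, adjusted p = 0.0489) and below 0 for RSM26 (-0.46 ± 0.08, adjusted p = 0.0430), with 2.87% and 4% of genes higher and lower (6.87% in all). None of these calls held when any 1 of the 6 arrays was left out. With a slide term 9 of 57 members passed in K123R minus ubp8, where 24.2% of genes did. On the slides that held an array of each, the median member difference was 0.08 for K123R minus ubp8 and 0.05 for the double mutant minus ubp8, with 33 and 34 of 57 members above 0. On the slide of K123R and ubp8, K123R was in Cy3 and ubp8 in Cy5, so mutant and dye cannot be told apart there. On the other slide both mutants were in Cy3.

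Against the htb2 deletion strain the K123R strain showed the widest spread of member values. Of the 57 members 1 rose and 16 fell, 1.75% and 28.1%, where 12.5% of 6109 genes rose and 13.5% fell (26% in either direction). The median was -0.22 over the members and -0.01 over all genes. The 3 arrays gave member medians of -0.14, -0.18 and -0.34, an SD of 0.11. Of the 52 members with a value on every array, 31 (59.6%) were below 0 on all 3 and 13 (25%) above 0 on all 3, where 32.6% and 32.2% of genes were.

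**Figure D3:**
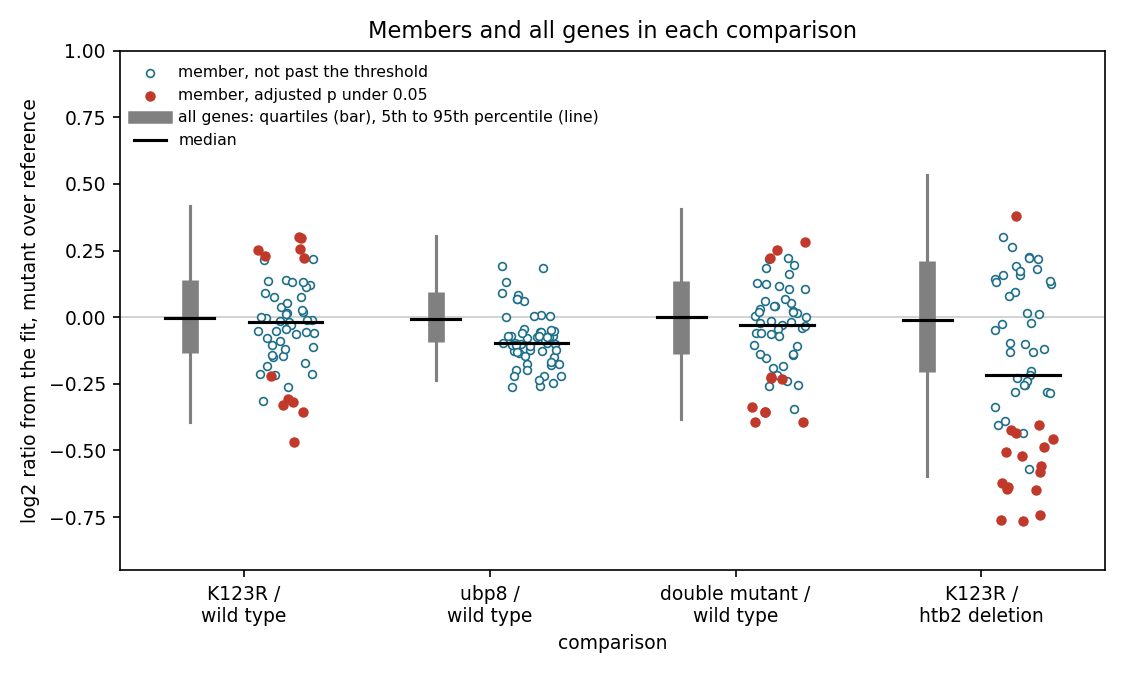
Fitted log2 ratios of the 57 members (points, filled where the adjusted p was under 0.05) beside the quartiles and the 5th to 95th percentile of all genes, with black lines at the medians, for the 4 comparisons. The median of the members lies at -0.10 in the ubp8 strain with no filled point, and at -0.22 in K123R against the htb2 deletion strain with 1 filled point above and 16 below 0.

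The large subunit held 11 of the 16 that fell, the small subunit 4, and MRP8 was the other one. The medians were -0.28 over the 33 large-subunit and -0.17 over the 22 small-subunit genes. All 16 were below 0 on every array that measured them, and in 14 of them the third array was the furthest from 0.

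Of the large-subunit genes, MRPL32 encodes a homologue of a bacterial protein whose cleavage by the m-AAA protease in the mitochondrial inner membrane is needed for ribosome assembly. It gave -0.70, -0.45 and -1.45 on the 3 arrays (-0.76 ± 0.17, adjusted p = 0.0370). MRPL37, a subunit particular to mitochondria, gave -0.75, -0.43 and -1.37 (-0.74 ± 0.15, adjusted p = 0.0309). In these 2 genes, and in MRPL49 with -0.71, -0.21 and -1.21 (-0.58 ± 0.13, adjusted p = 0.0352), the arrays differed by 0.94 to 1.00, against a median gap of 0.28 over the members. MRPL6 gave -0.66, -0.41 and -1.07 (-0.64 ± 0.11, adjusted p = 0.0252), and MRPL31 gave -0.43, -0.53 and -0.59 (-0.52 ± 0.08, adjusted p = 0.0227). MRPL20, a subunit particular to mitochondria, gave -0.40, -0.42 and -0.995 (-0.56 ± 0.14, adjusted p = 0.0472). MRPL33 had values on 2 arrays only, -0.50 and -0.79, and was fitted from those (-0.65 ± 0.11, adjusted p = 0.0246). Both had K123R in Cy3, so MRPL33 was fitted without the dye term, and strain and dye cannot be told apart in its value.

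Of the small-subunit genes, MRP2, a homologue of a bacterial protein, was the furthest from 0. Its signals in K123R and in the htb2 deletion strain were 1895 and 3134 on the first array, 2445 and 3570 on the second, and 2130 and 5059 on the third. The log2 ratios of -0.73, -0.55 and -1.25 gave -0.77 ± 0.13 (adjusted p = 0.0237), which is 0.588 of the reference. RSM27, a subunit particular to mitochondria, gave -0.65, -0.45 and -1.05 (-0.65 ± 0.11, adjusted p = 0.0238). RSM26 gave -0.56, -0.48 and -0.98 (-0.62 ± 0.11, adjusted p = 0.0271).

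The member that rose against the htb2 deletion strain was MRPL3. Its signals were 4658 against 3505 on the first array, 4195 against 3181 on the second and 3575 against 2874 on the third. The log2 ratios were 0.41, 0.40 and 0.31, and the fit gave 0.38 ± 0.08 (adjusted p = 0.0330). All 3 arrays lay above 0.

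The fit of 3 arrays with a dye term leaves 1 residual degree of freedom. Without the first array 5 members passed, where 7.34% of genes did. Without the second 22 passed, where 31.1% of genes did, and without the third 9 passed, where 13.8% did. The members' counts thus moved with those of all genes. These fits with an array left out had no dye term. Without the second array K123R was in Cy3 on both arrays left, so strain and dye cannot be told apart there. MRP20, MRP51, MRPL16, MRPL33 and RSM28 lacked a value on at least 1 of these arrays after outlier-flagged spots were dropped. Of the 57 members 2 were fitted without the dye term and 4 had no residual degree of freedom of their own. The first and second arrays share a slide and differ in dye.

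The value of a member against the htb2 deletion strain went with the length of its gene. Lengths are gene lengths from RefSeq R64, and whether they include introns was not checked. Over the 57 members Spearman's rho between length and log2 ratio was 0.615 and Pearson's r was 0.601, and over 5627 genes with a length rho was 0.397. On the single arrays rho over the members was 0.627, 0.442 and 0.644. These are descriptions across genes measured on the same arrays. Against wild type rho over the members was 0.226 in K123R, -0.273 in the ubp8 strain and 0.22 in the double mutant.

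Members are short genes, with a median length of 717 bp against 1221 bp over all genes, and 84.2% of them are at most 1000 bp long, where 38.8% of genes are. Among the 19 members of up to 500 bp, 10 fell against the htb2 deletion strain and the median was -0.42, while 31.5% of all 685 genes of that length fell and their median was -0.19. Among the 29 members of over 500 to 1000 bp, 6 fell and the median was -0.23, while 19.4% of all genes of that length fell and their median was -0.11. Of the 8 members of over 1000 to 1500 bp none fell, 1 rose and the median was 0.15. Of all 1281 genes of that length 10.6% fell, and their median was 0.05. The 16 members that fell were 213 to 801 bp long.

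When each array was centred on a smooth curve of log ratio against length, an alternative chosen after seeing the data, the member median against the htb2 deletion strain moved from -0.22 to -0.06. Under it 12 members fell and 6 rose, where 31.1% of genes passed in either direction, and 13 of the 17 main calls were among the 18. In the ubp8 strain the same centring left the median at -0.10 with 48 members below 0, and 1 member passed. In the ubp8 strain the members of over 500 to 1000 bp had a median of -0.10, and those of up to 500 bp had 0.0014.

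**Figure D4:**
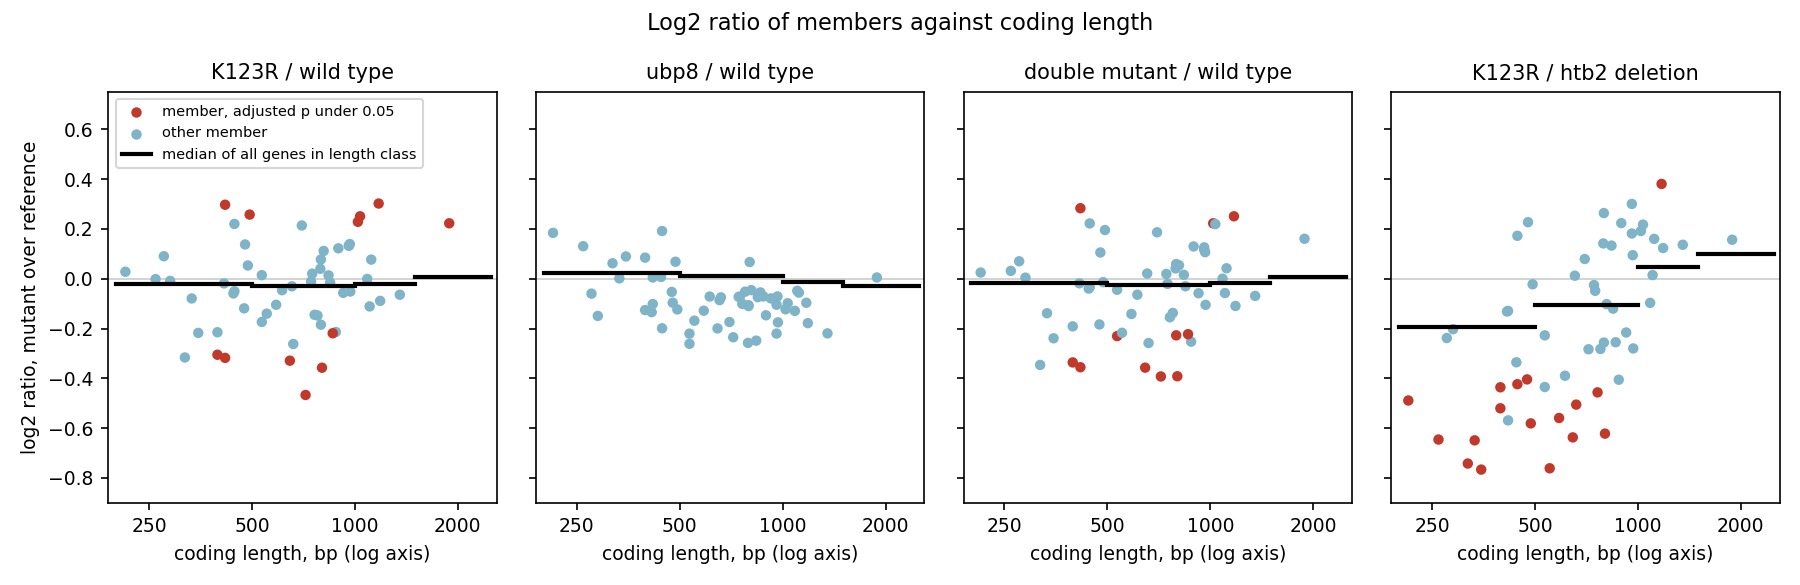
Fitted log2 ratio of each member (points, red where the adjusted p was under 0.05) against its gene length in bp, for the 4 comparisons. The log axis, labelled coding length, shows RefSeq gene lengths, and black bars mark the median of all genes in each length class. Against the htb2 deletion strain the members run from a median of -0.42 at up to 500 bp to 0.15 at over 1000 to 1500 bp, and the bars run from -0.19 to 0.05.

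In K123R 4 members passed against both reference strains, all in the same direction in the 2 comparisons. MRPL3 rose against both, where 5.96% of 6108 genes did. MRPL31, MRPL6 and RSM26 fell against both, where 5.57% of genes did. In sign alone, 15 of the 57 members were above 0 in both comparisons, 30 below 0 in both and 12 of opposite sign. The shares of all genes with these signs were not counted, so the counts are no result about the group. Of the other 8 members that passed against wild type, 6 had the same sign against the htb2 deletion strain without passing there. MRPL38, MRPS28, MRP13, MRP51 and RSM22 gave fitted values of -0.57, -0.25, 0.19, 0.22 and 0.16 there, beside -0.32, -0.22, 0.23, 0.25 and 0.22 against wild type, and that of MRP51 rests on 1 of the 3 arrays. MRPL8 gave -0.06, -0.50 and -0.07 there (-0.28 ± 0.08, adjusted p = 0.0549), with K123R in Cy5 on the array that was furthest from 0. RSM18 gave 0.13, -0.01 and -0.64 (-0.13 ± 0.17, adjusted p = 0.596), and its arrays spanned 0. MRPL23 also had the opposite sign there, at -0.02 ± 0.09.

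**Figure D5:**
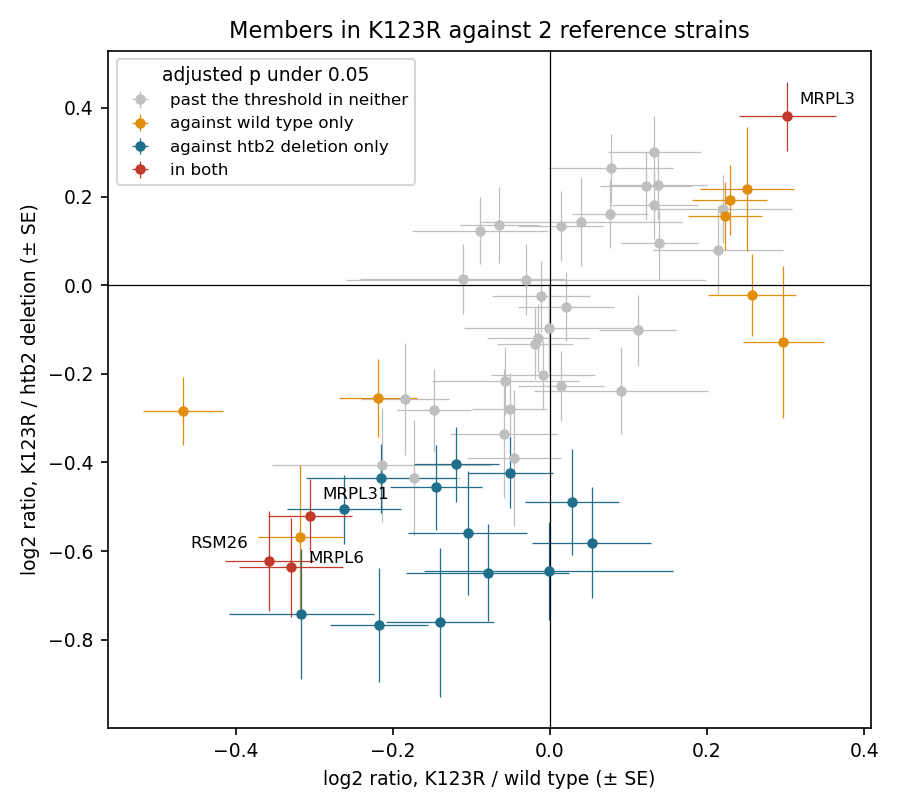
Fitted log2 ratio of each of the 57 members in K123R against wild type (horizontal) and against the htb2 deletion strain (vertical), with bars of 1 SE, coloured by the comparisons in which the adjusted p was under 0.05. MRPL3 lies at the upper right, at 0.30 and 0.38, and MRPL31, MRPL6 and RSM26 lie at the lower left.

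MRPS18, a homologue of a bacterial small-subunit protein, had the widest gap between the 2 arrays of every mutant against wild type. Its log2 ratios were 0.25 and -0.31 in K123R, 0.21 and -0.38 in the ubp8 strain and 0.34 and -0.30 in the double mutant, with gaps of 0.56, 0.58 and 0.64. In all 3 pairs the strain labelled with Cy5 gave the higher signal. With the htb2 deletion strain as reference, the array with K123R in Cy5 gave 0.15, and those with K123R in Cy3 gave -0.07 and -0.19. The median gap over the members was 0.09 in K123R, 0.10 in the ubp8 strain and 0.11 in the double mutant. MRPL33, MRPL35, MRPL7 and MRP20 were the other members among the widest gaps, with gaps of 0.34 to 0.48.

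The members lie on 14 chromosomes, at most 11 on one, and no pair of them is adjacent in the RefSeq order. Mitochondrial ribosomal proteins that carry other names on the array were followed as well. There are 23 such genes, and in RefSeq 10 of them now have a symbol of the members' form. Their median was -0.10 in the ubp8 strain, with 16 of 23 below 0 and none passing, and -0.23 against the htb2 deletion strain, with 17 of the 21 tested below 0, 2 higher and 3 lower. IMG1, a large-subunit gene, gave -0.34 and -0.24 in K123R (-0.29 ± 0.06, adjusted p = 0.0263) and -0.24 on both arrays of the double mutant (-0.24 ± 0.06, adjusted p = 0.0470). EHD3 (YDR036C) rose in K123R by 0.23 ± 0.06 (adjusted p = 0.0425).

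VAR1, the small-subunit gene of mitochondrial DNA, gave -1.69, -0.49 and -1.94 against the htb2 deletion strain (-1.15 ± 0.09, adjusted p = 0.0118). Its signal in either channel was 999 to 3836 on those 3 arrays and 137 to 235 on the 6 arrays against wild type. The 2 sets of arrays are of different designs. The part of this in the members' values was not tested.

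Other genes of mitochondrial translation were counted from lists. Of 13 mitochondrial tRNA synthetases, 12 were below 0 in the ubp8 strain with a median of -0.11, and none passed. None of them passed in K123R against wild type, MSY1 fell in the double mutant (-0.24 ± 0.05, adjusted p = 0.0313), and MSE1 fell against the htb2 deletion strain (-0.36 ± 0.09, adjusted p = 0.0452). Of 12 translation factors, TUF1, the elongation factor that carries charged tRNA, and IFM1, the initiation factor, rose in K123R against wild type, by 0.28 ± 0.06 and 0.20 ± 0.05 (adjusted p = 0.0323 and 0.0435). MRF1, the release factor, fell, with -0.37 and -0.47 on the 2 arrays (-0.42 ± 0.06, adjusted p = 0.00899). None of the 12 passed in the ubp8 strain, where their median was -0.02.

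Of 8 genes of ribosome assembly and rRNA modification, 2 rose and 1 fell in K123R against wild type. GEP3 (YOR205C) gave 0.45 and 0.43 (0.44 ± 0.05, adjusted p = 0.00562), and MRM1 (PET56), a methyltransferase of the large ribosomal RNA, gave 0.35 and 0.27 (0.31 ± 0.06, adjusted p = 0.02165). These genes lie 2 and 1 genes from HIS3, which differed between the strains. The part of that position in their values was not tested. The other, MTG2 (YHR168W), a GTPase of large-subunit assembly, fell by 0.30 (SE 0.05, adjusted p = 0.0171). In the ubp8 strain 6 of the 8 assembly and modification genes were below 0 (median -0.06) and none passed.

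Protein import brings the members' products into the organelle. Of 22 genes of import, 1 rose and 2 fell in K123R against wild type, where 10.9% and 10.1% of genes did. Against the htb2 deletion strain 5 rose and 2 fell, where 12.5% and 13.5% of genes did. In the ubp8 strain 15 of the 22 were below 0 (median -0.06) and none passed. TOM70, a receptor on the outer membrane, gave 0.35 and 0.38 against wild type (0.37 ± 0.05, adjusted p = 0.00801) and 0.52, 0.67 and 0.55 against the htb2 deletion strain (0.60 ± 0.08, adjusted p = 0.01905). Of 14 translational activators of mitochondrial messages, 1 fell in K123R against wild type and 2 fell against the htb2 deletion strain. In the ubp8 strain 10 of these 14 were below 0 (median -0.08) and none passed. Of 6 genes of the HAP complex, HAP1 and PUF3, HAP1 fell in K123R against wild type (-0.43 ± 0.07, adjusted p = 0.0124). HAP4, the activator subunit of the HAP complex, fell against the htb2 deletion strain, from 2 arrays that gave -0.49 and -0.56 (-0.52 ± 0.10, adjusted p = 0.03755).

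The proteins of the cytosolic ribosome were the nearest group for comparison. Of 138 such genes, 2 rose and none fell in K123R, where 10.9% and 10.1% of genes did. In the double mutant 2 rose and none fell, where 9.78% and 10.2% did. None passed in the ubp8 strain, where 2.83% of genes did and the median of the 138 was -0.02. Their medians on the first and second array were -0.02 and 0.11 in K123R, -0.03 and 0.13 in the double mutant and -0.11 and 0.13 in the ubp8 strain. The sign turned with the dye in each mutant, and as the fit has no dye term, that swing is part of the spread behind these counts. Against the htb2 deletion strain 32 of 137 fell and 1 rose, where 13.5% and 12.5% of genes did, with a median of -0.18 over the 137. The difference between the 2 kinds of ribosomal protein gene was not tested.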

How the data were processed

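RNA of 9 mutant and reference pairs was measured on Agilent 2-colour arrays, 6 against wild type and 3 against the htb2 deletion strain, with groups and dyes taken from the channel labels. Per the file headers, the deposited scanner files came from Agilent Feature Extraction, in a later version for the 3 arrays against the htb2 deletion strain, which are of another array design, and hold spot intensities and quality flags. The authors' deposited value table holds log10 ratios that, turned to mutant over reference, differed from the scanner files' dye-normalised ratios by at most 5e-10, with column medians from -0.00603 to 0.00371, so no centring remains unknown.

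Mean intensities were background-corrected by normexp (offset 50) and loess-normalised within each array in limma 3.58.1 (R 4.3.3). Control and outlier-flagged spots were dropped and spots of a probe were averaged (19 members have 1 spot, 38 have 2). A gene was tested when well above background in a colour on at least 3 of 6 or 2 of 3 arrays. The 6 arrays against wild type were fitted with a mean per mutant, and the 3 others with a gene-specific dye term, by lmFit and eBayes with Benjamini-Hochberg adjustment. Nothing says that arrays came from separate cultures beyond the series' word for replicates. The p-values therefore measure the spread between these arrays, and the small number of arrays limits precision. In the fit of 6 arrays, which has no dye term, that spread includes any effect of dye orientation. Counts of calls there and in the fit of 3 arrays thus rest on unlike models of the spread. The script was tested on simulated data. The systematic names of 5756 of 6256 probes, all 57 members among them, matched a RefSeq R64 locus tag.

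The named members are those that passed (the 10 furthest from 0 where more than 10 did), the 3 furthest from 0 where none passed, those passing against both references, those with the widest gaps between arrays and those lacking arrays, with up to 4 genes of each other list by adjusted p. The members and lists were chosen with earlier results of these data known. Alternatives were other signals, the deposited values, centring, filters, dye and slide terms, arrays left out and, added later, centring on gene length. No sequence is shown.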

Additional observations from a re-analysis of the deposited data

Results flagged for a closer look

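In K123R 2 members lay on opposite sides of 0 on every array against wild type and on every array against the htb2 deletion strain. MRPL9, a homologue of a bacterial large-subunit protein, gave 0.15 and 0.08 against wild type and -0.14, -0.01 and -0.26 against the htb2 deletion strain, a difference of -0.21 between the fitted values. RSM23, a small-subunit gene, gave -0.03 and -0.10 against wild type and 0.13, 0.05 and 0.33 against the htb2 deletion strain, a difference of 0.20. The difference was not tested in either gene, and neither passed in either comparison. Of the 52 members with a value on every array these 2 are 3.85%, where 6.04% of 5346 genes did the same. No group held enough arrays to look for a single outlying array.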

How the results depend on the processing

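The array number, which is also the dye orientation, was shared by all 3 mutants. Deviations of same-numbered arrays from their group means correlated at 0.8855, 0.8648 and 0.867 over all genes. With this replicate block 36, 34 and 34 members passed in K123R, the ubp8 strain and the double mutant with wild type as reference, and 34 and 35 in the double mutant and K123R minus ubp8, while 4137, 3091 and 4089 of all genes passed in place of 1317, 177 and 1246, and 54.6% and 56.5% of genes in the 2 contrasts. The slide as a block gave 1 member in the ubp8 strain, 18 in the double mutant and 9 in K123R minus ubp8, with 2316, 749 and 1948 genes against wild type and 1510 (24.2%) in K123R minus ubp8. A random slide block for the 3 arrays with the htb2 deletion strain could not be fitted. The 2 arrays of a comparison alone gave 5 members in K123R and 6 in the double mutant, where 17.4% and 19.1% of genes passed. The double mutant minus ubp8 gave 0 members with Agilent's processed signals, 1 with the deposited values and 0 with median centring, which gave 1 in K123R minus ubp8 and a double-mutant median of -0.0591. Length centring gave 1 member in the ubp8 strain, 7 in K123R minus ubp8, and medians of -0.0031 in the double mutant and -0.0591 against the htb2 deletion strain. The cause of these moves was not tested.

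Leaving out 1 array gave 0 to 6 members in K123R against wild type, 0 to 5 in the double mutant, 5 to 22 against the htb2 deletion strain, and 0 to 0 in both contrasts with ubp8. The median then ran from -0.0599 to 0.0069 in K123R against wild type, which turns its sign, from -0.0970 to -0.0775 in the ubp8 strain and from -0.0504 to -0.0252 in the double mutant. MRPL33 in the ubp8 strain reversed to -0.0436 without the first ubp8 array and was 0.305 without the second. Over the values of single named members and alternatives, 489 kept their direction and call, 153 lost the call, 8 gained it and 1 reversed. The 2 or 3 arrays per comparison limit what can be called. The fits that left out an array had no dye term. Against wild type they left the mutant of that array without a measurement in both dyes. Every member was well above background.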
